A study of Mus musculus with 21 samples.

Results

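Transcripts of 9 genes that restrain mitogen-activated protein kinase (MAPK) signalling were followed in splenic T cells whose gp130 was made constitutively active. The genes, taken by symbol from the 51201 genes of the deposited count tables, were the dual-specificity phosphatases Dusp1, Dusp2, Dusp4, Dusp5, Dusp6 and Dusp10, the Sprouty genes Spry1 and Spry2, and the Sprouty-related gene Spred1. All 9 were detected in all libraries and passed the filter on low counts in both cell types.

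The tested mice were L-gp130fl/+;CD4Cre+/-, which carry an allele that Cre turns on to make a gp130 that signals without ligand. They were set against CD4Cre+/- mice, so that both groups carried the Cre transgene, which is driven by the Cd4 promoter and acts in T cells generally, those of the CD8 lineage included. All mice were C57BL/6J, male or female, and 35 days old after birth, and the cells came from spleen. Each library was labelled as 1 mouse. There were 6 L-gp130 and 6 control libraries of CD4+ cells, and 3 L-gp130 and 6 control libraries of CD8+ cells. CD4+ cells were pulled out with beads against CD4, whereas CD8+ cells were enriched by removing other cells, so that cell type and selection method cannot be told apart.

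In MAPK cascades, a receptor activates Ras or a stress kinase, and successive kinases phosphorylate and activate ERK, JNK or p38. gp130, the signalling chain shared by receptors of interleukin-6 and related cytokines, activates STAT3 and, through the phosphatase encoded by Ptpn11, the Ras and ERK branch. Dual-specificity phosphatases remove the activating phosphates from MAPKs, and Sprouty and Spred proteins act further upstream, at the level of Ras and Raf. Many of these genes are themselves induced by MAPK activity, so that they form negative feedback loops, which in T cells operate downstream of the antigen receptor as well as of cytokines.

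Promoters are shown for Spry1 and Spry2, which were higher in L-gp130 cells, and for Dusp1 and Dusp5, the only genes searched that held a motif. The levels of Dusp1 and Dusp5 split the control CD8 libraries, as did those of Dusp4, Spry1 and Spry2, and no link between motifs and levels was tested. Each promoter has 250 bases before and 50 bases after the transcription start, 5′ to 3′, from RefSeq on build GRCm38.p6. Capitals mark a cyclic AMP response element (CRE) in Dusp1 and a pair of adjoining CArG boxes, the motif of serum response factor, in Dusp5.
Spry1, chr3:37639697-37639996 (plus strand): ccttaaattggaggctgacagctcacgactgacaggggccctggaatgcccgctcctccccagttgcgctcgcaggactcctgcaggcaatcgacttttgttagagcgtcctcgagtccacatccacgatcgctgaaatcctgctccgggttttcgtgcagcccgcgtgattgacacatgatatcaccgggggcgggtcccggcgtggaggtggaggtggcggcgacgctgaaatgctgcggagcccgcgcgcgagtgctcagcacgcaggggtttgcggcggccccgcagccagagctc
Spry2, chr14:105896770-105897069 (minus strand): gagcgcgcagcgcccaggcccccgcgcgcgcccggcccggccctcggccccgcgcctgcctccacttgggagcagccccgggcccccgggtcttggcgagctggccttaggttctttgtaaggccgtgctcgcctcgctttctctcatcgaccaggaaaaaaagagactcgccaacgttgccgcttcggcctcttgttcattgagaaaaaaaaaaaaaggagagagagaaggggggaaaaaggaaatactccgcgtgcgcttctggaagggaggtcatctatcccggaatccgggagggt
Dusp1, chr17:26508423-26508722 (minus strand): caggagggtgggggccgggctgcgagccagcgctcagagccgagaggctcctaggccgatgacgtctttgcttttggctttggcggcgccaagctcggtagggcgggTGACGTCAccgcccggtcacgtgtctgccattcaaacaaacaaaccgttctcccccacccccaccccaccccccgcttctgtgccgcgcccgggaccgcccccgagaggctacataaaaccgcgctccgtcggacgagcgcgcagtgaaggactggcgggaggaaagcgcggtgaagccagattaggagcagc
Dusp5, chr19:53528895-53529194 (plus strand): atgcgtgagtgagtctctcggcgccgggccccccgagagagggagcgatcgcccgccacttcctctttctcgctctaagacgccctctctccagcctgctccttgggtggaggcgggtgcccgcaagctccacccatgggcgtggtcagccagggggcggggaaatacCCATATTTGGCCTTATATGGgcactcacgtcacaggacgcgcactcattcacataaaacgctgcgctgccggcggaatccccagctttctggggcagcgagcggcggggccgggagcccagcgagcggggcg
Both strands were searched for a STAT motif (TTCNNNGAA), an AP-1 motif (TGANTCA), a CRE (TGACGTCA) and the CArG box in 8 of the 9 genes, for which a promoter was at hand. Among 32851 promoters of the same length, 8.30% held the STAT motif, 7.81% the AP-1 motif, 1.79% the CRE and 1.63% a CArG box. The CRE of Dusp1 began 143 bases before its start, and the CArG boxes of Dusp5 began 82 and 72 bases before its start. None of these letters occurred in the windows of Spry1, Spry2, Spred1, Dusp2, Dusp6 or Dusp10.

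Estimated gene counts summed to 17781325 to 21226374 per library in L-gp130 CD4 cells and 27855745 to 35869240 in control CD4 cells, so that depth went with genotype there. In CD8 cells they summed to 17217503 to 19476944 in L-gp130 and 17719174 to 19286516 in control libraries. Cd4 averaged 715 and 727 CPM (counts scaled to the normalised library size) in L-gp130 and control CD4 cells. It averaged 11.6 and 8.30 CPM in L-gp130 and control CD8 cells, and Cd8a went the other way. Zbtb7b, the other CD4 T cell marker listed, was lower in L-gp130 CD4 cells, with an edgeR adjusted p of 0.0051. It had 143 to 194 CPM there, against 228 to 273 CPM in control CD4 cells. Replicate 1 of the L-gp130 CD4 libraries stood apart from its group, with 92.3 CPM of Cd8a against 14.3 to 28.7 in the other 5, 33.5 of Cd8b1 against 17.5 to 25.4, 32.7 of Xcr1, a marker of a dendritic cell type that also carries Cd8a, against 1.77 to 5.18, and with 4 monocyte-macrophage markers summing to 1428 CPM against 320.4 to 526. Of the other dendritic cell markers in that library, Itgax was the highest of its group at 99.1 CPM. Its Flt3 of 21.9 CPM lay within the group, and its Siglech of 2.37 CPM was the lowest. Its Cd4, at 520 CPM, and the sum of its T cell markers, at 1329 CPM, were also the lowest of the group. Replicate 5 of the control CD4 libraries was labelled female but read as male from Xist and Ddx3y. In CD8 cells, control replicates 1 to 3 lay at -27.9 to -23.4 on the second principal component and control replicates 4 to 6 at 6.86 to 31.3. Some results that rest on these libraries are given with and without them, mainly genotype differences within a cell type. Others are given with all libraries only, such as the differences of Dusp1, Dusp2, Spry2 and Spred1 between CD4 and CD8 cells. The same holds for the pathway genes whose genotype difference was called as differing between cell types.

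Some markers of other cells, and of the T cells themselves, were called between genotypes. Their counts stand beside 18.9% of all genes called in CD4 cells and 21% in CD8 cells, and nothing is read from the counts. In CD4 cells 2 of 4 B cell markers were lower in L-gp130 libraries, whose list summed to 148 to 399.9 CPM, against 149 to 629.8 CPM in the controls. Siglech, 1 of 4 dendritic cell markers, was lower with 2.37 to 9.29 against 13.1 to 40.3 CPM. Jchain, 1 of 3 plasma cell markers, was higher with 67.4 to 158 against 19.2 to 49.0 CPM. The other plasma cell markers, Sdc1 and Mzb1, were not called, with log2 differences of 0.32 and -0.20. In CD8 cells both CD8 T cell markers were lower, summing to 1408 to 1675 CPM in L-gp130 against 1852 to 2440 CPM in control libraries, as were 2 of 4 T cell markers and 1 of 3 NK cell markers, and 1 of 4 dendritic cell markers, Itgax, was higher. Every listed marker was detected in every group. Their part in the genotype differences of the 9 genes was not tested.

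Spry1 was higher in L-gp130 cells of both types. Sprouty proteins inhibit the Ras and ERK pathway downstream of receptors, and Spry1 is known in mouse T cells as an inhibitor of antigen receptor signalling. Spry1 (ENSMUSG00000037211) lies on the plus strand of chromosome 3, from 37639947 to 37644598 on build GRCm38, and a gene model annotated on the other strand over part of it had 0 reads. In CD4 cells Spry1 had 12.2, 22.8, 20.5, 18.2, 22.7 and 20.96 CPM in L-gp130 libraries 1 to 6, against 8.07, 9.49, 7.15, 6.60, 8.43 and 7.12 CPM in control libraries 1 to 6. The groups did not overlap, and the lowest L-gp130 library was replicate 1. Spry1 rose by 1.38 ± 0.17 (SE) on the log2 scale, which is 2.61-fold, with an adjusted p of 0.000162 by edgeR's quasi-likelihood test with Benjamini-Hochberg adjustment. It stayed past the threshold of 0.05 under every alternative tried, including the fit without either library in doubt, with log2 values of 1.14 to 1.49. In bulk RNA such as this, more cells of a kind that transcribes a gene and more RNA per cell cannot be told apart.

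In CD8 cells Spry1 had 10.9, 8.81 and 10.6 CPM in L-gp130 libraries, against 6.12, 5.18, 4.77, 3.41, 1.90 and 2.26 CPM in control libraries. The groups did not overlap, although control replicates 1 to 3 were all higher than replicates 4 to 6. The log2 difference was 1.36 ± 0.33, with an adjusted p of 0.0162 by edgeR. Against control replicates 4 to 6 alone it was 2.005 with an edgeR adjusted p of 0.00138, and against control replicates 1 to 3 alone it was 0.92 with an edgeR adjusted p of 0.0137. Leaving out L-gp130 replicate 1 or replicate 3 gave edgeR adjusted p-values of 0.0745 and 0.0968.

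Spry2, the other Sprouty gene of the set, was higher in L-gp130 CD8 cells. Spry2 (ENSMUSG00000022114) lies on the minus strand of chromosome 14, from 105891947 to 105896819. It had 47.6, 49.1 and 43.7 CPM in L-gp130 CD8 libraries, against 23.4, 21.8, 29.6, 20.7, 9.84 and 13.9 CPM in control CD8 libraries. Every L-gp130 library lay above every control library. Control replicates 1 to 3 were all higher than replicates 4 to 6, although replicates 2 and 4, at 21.8 and 20.7 CPM, were close. Control replicates 5 and 6 were the lowest. The log2 difference was 1.24 ± 0.28, or 2.36-fold, with an edgeR adjusted p of 0.0139. Against control replicates 4 to 6 it was 1.67 with an edgeR adjusted p of 0.00362, and against control replicates 1 to 3 it was 0.92 with an edgeR adjusted p of 0.00213. The edgeR adjusted p was 0.0604 without L-gp130 replicate 1, 0.0514 without L-gp130 replicate 2 and 0.0548 with no filter on low counts.

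In CD4 cells Spry2 was low, with 24 to 82 estimated counts in L-gp130 libraries and 30 to 65 in control libraries. It had 4.52, 1.21, 2.35, 2.25, 1.75 and 1.77 CPM in L-gp130 CD4 libraries, against 1.30, 1.27, 2.26, 1.96, 0.885 and 1.54 CPM in control CD4 libraries. The groups overlapped, and the highest value belonged to L-gp130 replicate 1. That library also had the highest Cd8a, Cd8b1 and Xcr1 levels of its group, but the lowest level of Siglech, another dendritic cell marker. The log2 difference of 0.32 ± 0.40 did not pass the test, with an edgeR adjusted p of 0.609. It was 0.19 without that library and 0.10 without both libraries in doubt, with edgeR adjusted p-values of 0.705 and 0.841. The part of other cells in that 1 value was not tested.

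Spred1, which binds neurofibromin and so limits Ras, did not pass the test in either cell type. It had 23.3 to 32.0 CPM in L-gp130 CD4 cells with a median of 27.7, against 21.4 to 26.6 CPM in control CD4 cells with a median of 24.2. In CD8 cells it had 19.4, 17.5 and 14.9 CPM in L-gp130 libraries, against 15.7 to 22.8 CPM in control libraries with a median of 18.8. Both pairs of groups overlapped, with log2 differences of 0.11 ± 0.09 in CD4 cells and -0.12 ± 0.14 in CD8 cells. Their edgeR adjusted p-values were 0.404 and 0.554.

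**Figure D1:**
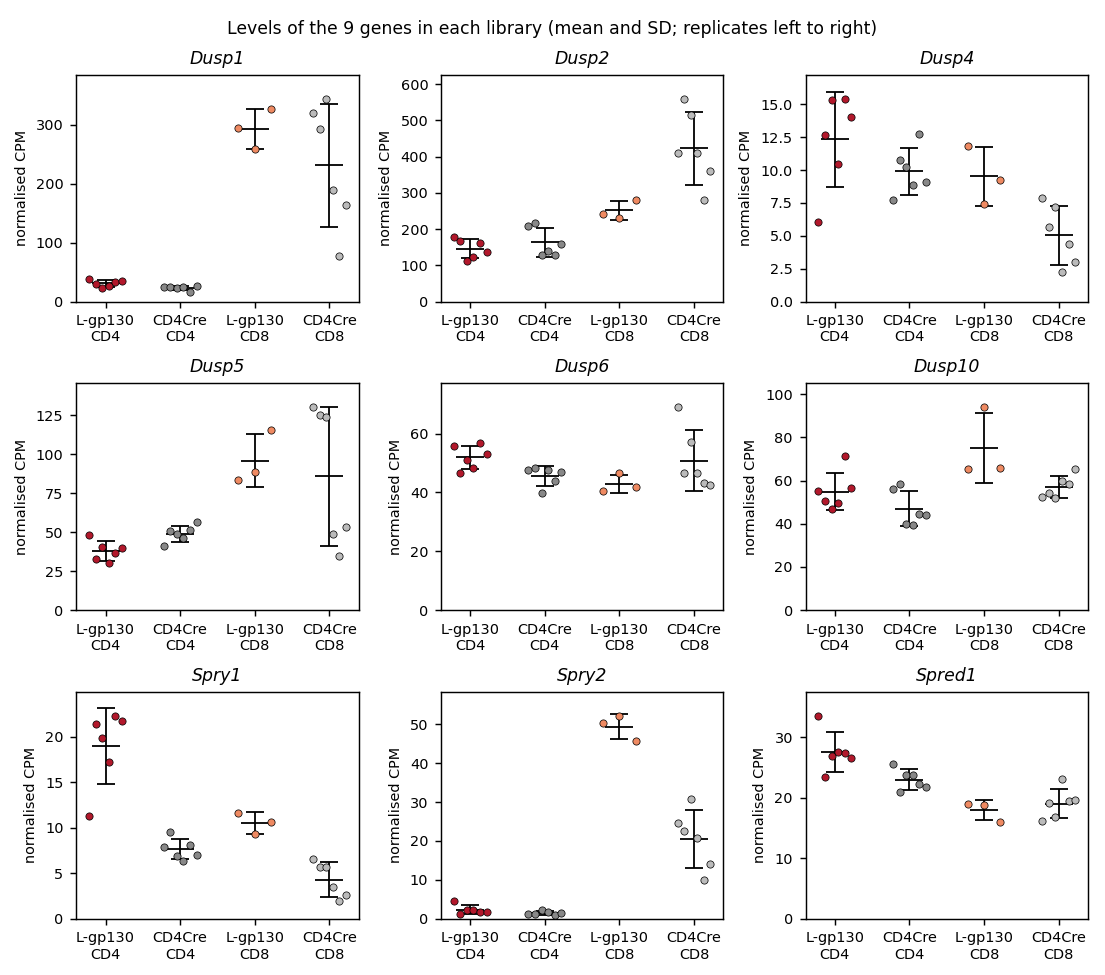
Normalised CPM of each of the 9 genes in every library, scaled over all 21 libraries, with replicates in number order from left to right, and the mean and SD of each group. Spry1 separates L-gp130 from control in both cell types, and Spry2 and Dusp1 are far higher in CD8 than in CD4 cells. Control CD8 replicates 1 to 3 stand above replicates 4 to 6 for several genes, Dusp1, Dusp4, Dusp5 and Spry1 among them.

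Dusp2, a nuclear phosphatase of ERK and p38 first found in activated T cells, was lower in L-gp130 CD8 cells. Dusp2 (ENSMUSG00000027368) lies on the plus strand of chromosome 2, from 127336159 to 127338376. It had 236, 228 and 279 CPM in L-gp130 CD8 libraries, against 370.4, 505, 482, 379, 262 and 339 CPM in control CD8 libraries. Only control replicate 5 lay within the range of the L-gp130 libraries. Dusp2 fell by 0.66 ± 0.19 on the log2 scale, with an edgeR adjusted p of 0.0335. The difference was -0.41 against control replicates 4 to 6 and -0.87 against control replicates 1 to 3, with edgeR adjusted p-values of 0.0493 and 0.00217. The call was lost in 6 of the 9 fits that left out 1 library, with edgeR adjusted p-values of up to 0.119, namely without any 1 of the L-gp130 libraries and without control replicate 1, 3 or 4. With no filter on low counts it was 0.0947.

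In CD4 cells Dusp2 had 117 to 196 CPM in L-gp130 libraries with a median of 149.9, against 130.3 to 219.8 CPM in control libraries with a median of 151. The groups overlapped over most of their range, and the log2 difference of -0.17 ± 0.18 had an edgeR adjusted p of 0.562. The retained-intron transcript Dusp2-202, of 756 bases, nevertheless took a larger share of the Dusp2 reads there. Its share was 5.66%, 5.07%, 5.49%, 6.62%, 4.42% and 4.73% in L-gp130 CD4 libraries, against 3.16%, 4.36%, 3.61%, 3.50%, 3.47% and 4.04% in control CD4 libraries. The groups did not overlap, but their nearest values, of 4.42% and 4.36%, were close. The means of 5.33% ± 0.78 and 3.69% ± 0.43 (SD, n = 6 each) differed by 1.64 percentage points, with a 2-sided exact permutation p of 0.00216 and an adjusted p of 0.0346 over the 16 transcript shares tested. The call was lost in all 12 fits that left out 1 CD4 library. Their exact permutation adjusted p was 0.0693, the smallest possible there, so that none of them could pass. In CD8 cells the share was 6.95% ± 0.38 in L-gp130 (n = 3) and 5.84% ± 0.91 in control libraries (n = 6), with an exact permutation p of 0.119 and an adjusted p of 0.381. None of the other 14 shares passed the test, and 2 of them had an unadjusted exact permutation p under 0.05, Dusp1-203 and Dusp6-202, both in CD8 cells. Dusp6-202 took 2.09% ± 0.71 of the Dusp6 reads in L-gp130 and 0.536% ± 0.54 in control CD8 libraries. It took 0.507% and 0.218% in L-gp130 and control CD4 libraries. Only the L-gp130 CD8 group thus reached the mean share of 2% required for testing. Its CD8 comparison is therefore not independent of that choice, and nothing is read from it. With 3 against 6 CD8 libraries the smallest exact permutation p is 0.0238, which Dusp6-202 reached and which gave an adjusted p of 0.190, so that a CD8 share could hardly pass. The transcript shares were chosen for testing after their values were seen. Shares rest on Salmon's division of reads between overlapping transcripts, and in CD4 cells the genotype cannot be told apart from the depth of the libraries.

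**Figure D2:**
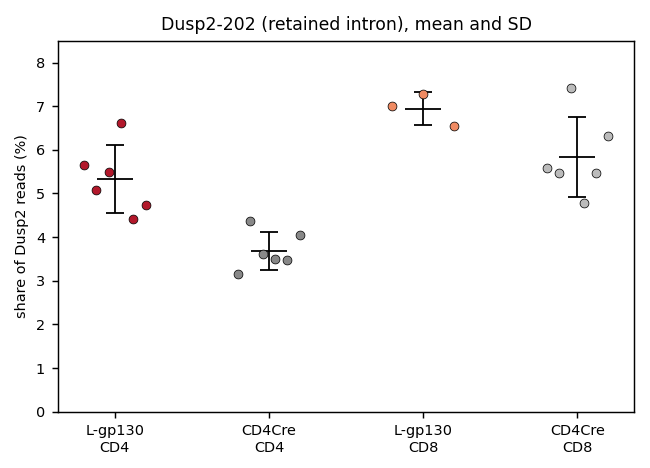
Share of the reads of Dusp2 that Salmon assigned to its retained-intron transcript, in percent, for each library, with the mean and SD of each group. The L-gp130 CD4 libraries lie between 4.42% and 6.62%, above all control CD4 libraries.

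Dusp1, the immediate early phosphatase of p38, JNK and ERK, did not pass the test in either cell type. In CD4 cells it had 40.6, 29.2, 22.9, 29.3, 36.2 and 36.7 CPM in L-gp130 libraries, against 24.5, 25.5, 22.5, 26.3, 17.5 and 27.6 CPM in control libraries. Of the L-gp130 libraries, only replicate 3 lay within the control range. The annotated Dusp1 locus overlaps Ergic1, but Dusp1-202, its most-read transcript, shares 0 bases with exons of that gene. The log2 difference was 0.44 ± 0.17 with an edgeR adjusted p of 0.0852. It passed with an edgeR adjusted p of 0.0332 when sex was read from Xist and Ddx3y, and of 0.0330 with no sex term. It also passed without L-gp130 replicate 3, with 0.0401. Without L-gp130 replicate 1, the library highest in Dusp1, the difference was 0.39 with an edgeR adjusted p of 0.0822. Without both libraries in doubt it was 0.33 with an edgeR adjusted p of 0.0917. Among the fits without 1 library the edgeR adjusted p reached 0.341. The 13 transcripts of the stress and handling list, which tissue dissociation is known to induce, summed to 3121 to 4352 CPM in L-gp130 CD4 libraries, against 2571 to 2993 CPM in the controls, without overlap, and their part in the Dusp1 difference was not tested.

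In CD8 cells Dusp1 had 278, 241 and 315 CPM in L-gp130 libraries, against 286, 274, 313, 177, 76.4 and 151.9 CPM in control libraries. Control replicates 1 to 3 were at the level of the L-gp130 libraries, and control replicates 4 to 6 were all lower. The log2 difference of 0.38 ± 0.39 had an edgeR adjusted p of 0.532. It was 1.04 against control replicates 4 to 6 and -0.07 against control replicates 1 to 3, with edgeR adjusted p-values of 0.0640 and 0.558. The handling list summed to 5391 to 6171 CPM in L-gp130 libraries, to 5226 to 5732 CPM in control replicates 1 to 3 and to 3417 to 4778 CPM in control replicates 4 to 6. The part of handling in the spread of Dusp1 was not tested.

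Dusp5, a nuclear phosphatase that acts on ERK, followed the same split of the control CD8 libraries. It had 78.9, 84.0 and 113 CPM in L-gp130 CD8 libraries, against 118, 115 and 112 CPM in control replicates 1 to 3 and 46.9, 32.6 and 49.3 CPM in control replicates 4 to 6. The control libraries thus lay on both sides of the L-gp130 libraries, and the log2 difference of 0.20 ± 0.44 had an edgeR adjusted p of 0.784. Against replicates 4 to 6 alone Dusp5 differed by 1.09 with an edgeR adjusted p of 0.000874, and against replicates 1 to 3 alone by -0.34 with an edgeR adjusted p of 0.0637, so that its direction depended on which controls were used.

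In CD4 cells Dusp5 had 50.7, 33.8, 41.3, 31.8, 37.8 and 38.9 CPM in L-gp130 libraries, against 42.3, 51.4, 49.9, 49.4, 53.9 and 57.7 CPM in control libraries. Only L-gp130 replicate 1, the library that stood apart in its markers, lay within the control range. The log2 difference was -0.37 ± 0.13 with an edgeR adjusted p of 0.0755. It passed without L-gp130 replicate 1, at -0.42 with an edgeR adjusted p of 0.0102, and without both libraries in doubt, at -0.40 with 0.0171. DESeq2 also called it, with an adjusted p of 0.0432, as did edgeR without control replicate 1 (0.0460), with no sex term (0.0194) and with sex read from Xist and Ddx3y (0.0369). A gene model annotated antisense to Dusp5 covers 547 of the 2473 bases of its transcript. Since the reads carry no strand, the reads of these genes cannot be separated by strand, but the antisense model was given 553 reads over all libraries, against 28902 for Dusp5.

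Dusp4, a nuclear phosphatase closely related to Dusp1, had 6.39, 13.2, 15.7, 10.9, 15.9 and 13.8 CPM in L-gp130 CD4 libraries, against 7.96, 10.8, 10.5, 9.32, 13.2 and 9.30 CPM in control CD4 libraries. The groups overlapped, and L-gp130 replicate 1 was the lowest of all 12 libraries. The log2 difference of 0.44 ± 0.23 had an edgeR adjusted p of 0.197, which became 0.0381 without L-gp130 replicate 1 and 0.0158 without both libraries in doubt. In CD8 cells Dusp4 had 10.9, 6.94 and 8.81 CPM in L-gp130 libraries, against 7.21, 5.41, 6.63, 2.20, 4.13 and 2.81 CPM in control libraries. A single control library exceeded the lowest L-gp130 library, and control replicates 1 to 3 were all higher than replicates 4 to 6. The log2 difference of 0.91 ± 0.35 had an edgeR adjusted p of 0.0942, and it was 1.54 with an edgeR adjusted p of 0.00716 against control replicates 4 to 6 alone and 0.47 with an edgeR adjusted p of 0.188 against control replicates 1 to 3 alone.

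Dusp6, the cytoplasmic phosphatase specific to ERK, had 45.8 to 61.1 CPM in L-gp130 CD4 cells with a median of 55.0, against 41.0 to 50.8 CPM in control CD4 cells with a median of 49.1. In CD8 cells it had 36.2, 43.8 and 43.4 CPM in L-gp130 libraries, against 37.6 to 68.0 CPM in control libraries with a median of 45.4. Both pairs of groups overlapped. The log2 differences of 0.15 ± 0.10 in CD4 and -0.24 ± 0.19 in CD8 cells had edgeR adjusted p-values of 0.295 and 0.408.

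Dusp10, which acts on JNK and p38 rather than ERK, had 46.8 to 75.0 CPM in L-gp130 CD4 cells with a median of 52.5, against 41.4 to 60.1 CPM in control CD4 cells with a median of 47.4. In CD8 cells it had 61.4, 87.8 and 61.7 CPM in L-gp130 libraries, against 49.7, 52.1, 49.6, 59.2, 57.1 and 65.4 CPM in control libraries. The groups overlapped in both cell types, and L-gp130 CD8 replicate 2 was well above the rest. The log2 differences of 0.09 ± 0.14 in CD4 and 0.34 ± 0.13 in CD8 cells had edgeR adjusted p-values of 0.682 and 0.0940. Dusp10 passed in CD8 cells without control replicate 6, at 0.43 with an edgeR adjusted p of 0.0282, against control replicates 1 to 3 alone, at 0.48 with 0.0446, on transcript reads summed per gene, at 0.39 with 0.0359, and with the replicate block, at 0.46 with 0.0218. Against control replicates 4 to 6 alone it was 0.21 with an edgeR adjusted p of 0.342.

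In CD4 cells, then, Spry1 was the 1 gene of the 9 that passed the test with labelled sex as covariate, and 3 of the 9 had an unadjusted p under 0.05. With sex read from Xist and Ddx3y, Dusp1 and Dusp5 passed as well. Of all 15016 genes tested in CD4 cells with labelled sex, 18.9% were called, 11.1% as higher and 7.75% as lower. Groups did not overlap for 13.5% of them, as for Spry1 alone of the 9. In CD8 cells 3 of the 9 passed, Spry1 and Spry2 as higher and Dusp2 as lower, against 21% of all 14254 genes tested. Groups did not overlap for 2 of the 9, against 24.1% of all genes. The median log2 difference of the 9 genes was 0.15 in CD4 and 0.34 in CD8 cells, against -0.01 for all genes tested in each. With 9 genes, counts of 1 and 3 are not far from these shares, and nothing about the set as a whole is read from them.

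**Figure D3:**
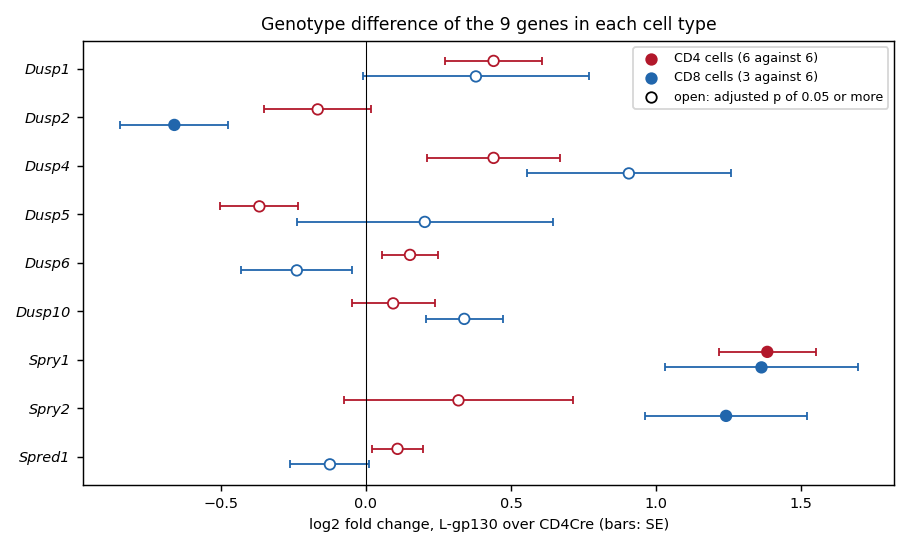
Log2 fold change of the 9 genes, L-gp130 over CD4Cre, with its SE, in CD4 cells (upper point of each pair) and CD8 cells (lower point), filled where the edgeR adjusted p was under 0.05. Spry1 lies at 1.38 in CD4 and 1.36 in CD8 cells, and Spry2 and Dusp2 are filled in CD8 cells alone.

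Whether the genotype difference itself differed between cell types was tested over all 21 libraries. None of the 9 genes passed by edgeR, against 3.46% of 15758 genes, and 1 had an unadjusted p under 0.05. That gene was Dusp6, whose difference in CD4 cells exceeded that in CD8 cells by 0.40 ± 0.16 on the log2 scale with an edgeR adjusted p of 0.190. For Spry1 the effects in CD4 and CD8 cells differed by 0.06 ± 0.38 with an edgeR adjusted p of 0.964. For Spry2 they differed by -0.68 ± 0.48 and for Dusp2 by 0.58 ± 0.28, with edgeR adjusted p-values of 0.498 and 0.301, so that a genotype difference particular to CD8 cells was not shown for either. DESeq2 and limma-voom also called 0 of the 9.

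**Figure D4:**
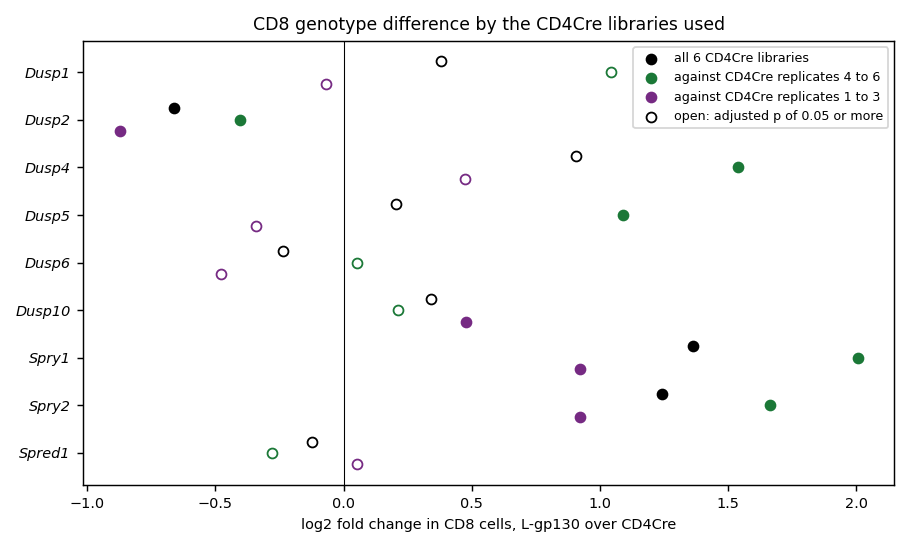
Log2 fold change in CD8 cells, L-gp130 over CD4Cre, against all 6 control libraries (upper point), against control replicates 4 to 6 (middle) and against control replicates 1 to 3 (lower), filled where the edgeR adjusted p was under 0.05. Spry1, Spry2 and Dusp2 keep their sign and their fill in all 3, while Dusp1, Dusp5, Dusp6 and Spred1 take either sign.

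Spry2 and Dusp1 differed more between the cell types than between the genotypes, whereas for Spry1 the genotype difference was the larger in size. Against control CD8 cells, control CD4 cells had less Spry2, Dusp1, Dusp2 and Dusp5 and more Dusp4, Spry1 and Spred1, so that 7 of the 9 passed, against 51.4% of all genes. Spry2 in control mice had 0.830 to 2.16 CPM in CD4 libraries with a median of 1.35, against 10.01 to 30.8 CPM in CD8 libraries with a median of 21.6. Even the highest CD4 library lay far below the lowest CD8 library, and the log2 difference was -3.75 ± 0.33 with an edgeR adjusted p of 2.33e-08. Dusp1 in control mice had 16.8 to 26.5 CPM in CD4 libraries with a median of 24.8, against 77.6 to 344 CPM in CD8 libraries with a median of 241. These groups did not overlap either, and the log2 difference was -3.36 ± 0.29 with an edgeR adjusted p of 4e-08.

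Dusp2 differed by -1.36 ± 0.19 between control CD4 and CD8 cells, with an edgeR adjusted p of 6.43e-06. The difference of Dusp5, of -0.87 ± 0.29 with an edgeR adjusted p of 0.0192, rested on control CD8 replicates 1 to 3 and was 0.027 without them. Its call was also lost without control CD8 replicate 3 and without control CD4 replicate 1, with edgeR adjusted p-values of 0.110 and 0.0561, with no filter (0.0546), with the replicate block (0.0595) and by limma-voom (0.0514). Dusp4 (0.89 ± 0.29), Spry1 (0.79 ± 0.25) and Spred1 (0.36 ± 0.08) were higher in control CD4 cells, with edgeR adjusted p-values of 0.0147, 0.0133 and 0.00146. The calls of Dusp4 and Spry1 were lost without control CD8 replicates 4 to 6, where the edgeR adjusted p-values were 0.146 and 0.138, and without control CD8 replicate 6 alone, at 0.0600 and 0.0541. Dusp6 and Dusp10 were not called between the control cell types, although Dusp10 was without control CD4 replicate 2, with an edgeR adjusted p of 0.0466. In these comparisons the stress and handling list was also lower in CD4 cells, with 12 of its 13 genes called lower in control mice. All 3 erythroid and all 4 B cell markers were higher in CD4 cells of both genotypes, the erythroid list at 2744 to 15018 CPM in control CD4 against 25.6 to 425 CPM in control CD8 libraries, and the B cell list at 149 to 629.8 against 28.0 to 69.8 CPM. Dendritic cell markers were also higher in control CD4 cells, 4 of 4, with 3 of 4 monocyte-macrophage markers, and all 3 NK cell markers were lower. The part of these lists in the differences was not tested.

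In L-gp130 mice 7 of the 9 passed between CD4 and CD8 cells as well, against 47.8% of all genes. Spry2 had 1.23 to 4.62 CPM in L-gp130 CD4 libraries with a median of 1.99, against 50.3, 52.2 and 45.8 CPM in L-gp130 CD8 libraries, a log2 difference of -4.43 ± 0.34 with an edgeR adjusted p of 9.10e-09. Dusp1 had 22.6 to 38.7 CPM in L-gp130 CD4 libraries with a median of 31.6, against 295, 259 and 327 CPM in L-gp130 CD8 libraries, a log2 difference of -3.23 ± 0.31 with an edgeR adjusted p of 1.97e-07. For both genes the cell types were far apart. Dusp2 (-0.78 ± 0.21), Dusp5 (-1.32 ± 0.32) and Dusp10 (-0.45 ± 0.14) were also lower in CD4 cells, with edgeR adjusted p-values of 0.00442, 0.00251 and 0.0143. Spry1 (0.85 ± 0.29) and Spred1 (0.62 ± 0.10) were higher, with edgeR adjusted p-values of 0.0191 and 3.55e-05. Without L-gp130 CD8 replicate 2 or replicate 3 the call of Spry1 was lost, with edgeR adjusted p-values of 0.0854 and 0.0742, and without replicate 2 that of Dusp10 was lost, with 0.135. Dusp4 and Dusp6 were not called, but for Dusp6 DESeq2 gave an adjusted p of 0.0359 and a log2 difference of 0.30, and edgeR called it with RLE scaling and without control CD8 replicate 1, with adjusted p-values of 0.0438 and 0.0195, as it did without control CD8 replicates 1 to 3 or 4 to 6, with 0.00524 and 0.0307.

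Levels of different genes were compared per length, as TPM (abundance per transcript length on a common total). Dusp2 was the most abundant of the 9 in every group, with 132 ± 23.4 TPM in L-gp130 CD4, 150.3 ± 32.7 TPM in control CD4, 201 ± 25.3 TPM in L-gp130 CD8 and 308 ± 68.1 TPM in control CD8 cells (SD). In CD4 cells Dusp1, Dusp5, Dusp6 and Dusp10 followed at 17.5 to 27.9 TPM as group means, an order in which neighbours lay within 1 SD of each other except for Dusp1, the lowest of these 4 in control cells. In CD8 cells Dusp1 stood next to Dusp2, at 182 ± 27.9 TPM in L-gp130 and 135 ± 57.8 TPM in control libraries, and Dusp5, Dusp6 and Dusp10 lay at 20.8 to 40.5 TPM as group means.

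Spry1 and Spred1 stood in a different order in the CD4 cells of the 2 genotypes. Spry1 had 9.84 ± 2.14 TPM in L-gp130 CD4 libraries and was above Spred1, at 6.65 ± 0.55 TPM, in 5 of the 6. In control CD4 libraries Spry1 had 4.16 ± 0.61 TPM and was below Spred1, at 6.14 ± 0.39 TPM, in all 6. Spry2 was the least abundant of the 9 in CD4 cells, at 1.58 ± 0.72 TPM in L-gp130 and 1.13 ± 0.39 TPM in control libraries. In CD8 cells it reached 32.2 ± 1.59 TPM in L-gp130 and 13.3 ± 4.70 TPM in control libraries, above Spry1, which had 4.38 ± 0.60 and 1.65 ± 0.68 TPM there.

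The 3 genes whose levels ran most like those of Spry1 over the 21 libraries, among 11166 genes, were Map4k1, Tigit and Bcl6, with Pearson's r of 0.944, 0.939 and 0.937 on the log2(CPM + 0.5) scale. These values describe 21 libraries that fall into 4 groups and share their scaling. Tigit, which encodes an inhibitory receptor, averaged 58.0 CPM in L-gp130 CD4, 11.7 in control CD4, 19.6 in L-gp130 CD8 and 6.08 in control CD8 cells. Bcl6, which encodes a transcriptional repressor, averaged 73.2, 37.0, 37.8 and 22.4 CPM in the same order, and Spry1 averaged 18.9, 7.63, 10.5 and 4.30 CPM.

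The other genes of the pathway were taken from lists, and their counts stand beside 18.9% of all genes called in CD4 cells (11.1% higher, 7.75% lower) and 21% in CD8 cells (10.5% in each direction). Of 14 other MAPK phosphatases tested in CD4 cells, 3 rose and 2 fell in L-gp130, 35.7% of the list, with a median log2 difference of 0.07. Dusp14 rose by 1.68 ± 0.24, with 2.36 ± 0.48 CPM in L-gp130 CD4 libraries against 0.786 ± 0.15 CPM in the controls, with an edgeR adjusted p of 0.000585. Ptpn7, a tyrosine phosphatase of ERK and p38 in blood cells, rose by 0.45 ± 0.07 with an edgeR adjusted p of 0.000485. Dusp7, the cytoplasmic ERK phosphatase related to Dusp6, fell by 0.50 ± 0.11 in CD4 and by 0.49 ± 0.11 in CD8 cells, with edgeR adjusted p-values of 0.00873 and 0.00905. In CD8 cells 1 of 13 rose, Dusp18, and 3 fell, Dusp22 and Dusp7 by the largest amounts, 30.8% of the list, with a median of -0.07. Dusp18 was not called against control replicates 1 to 3 or 4 to 6 alone, with edgeR adjusted p-values of 0.0502 and 0.0546, nor with the replicate block, with 0.0748.

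Of the other Sprouty and Spred genes, 3 of 4 were tested in each cell type. None passed in CD4 cells, with edgeR adjusted p-values of 0.488 to 0.819. In CD8 cells Spry4 rose by 1.17 ± 0.37, with 2.36 ± 0.29 CPM in L-gp130 libraries against 1.04 ± 0.44 CPM in the controls, with an edgeR adjusted p of 0.0468. That call was lost in 8 of the 9 fits that left out 1 library, with no filter (0.0564), with the replicate block (0.218) and against control replicates 1 to 3 alone, at 0.77 with an edgeR adjusted p of 0.153. In CD4 cells its log2 difference was -0.14 ± 0.37, and the difference between the cell types did not pass the test, with an edgeR adjusted p of 0.184.

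Of 28 ERK cascade genes, 4 rose and 4 fell in L-gp130 CD4 cells, 28.6% against 18.9% of all genes, with a median of -0.12, and 3 rose and 6 fell in L-gp130 CD8 cells, 32.1% against 21%, with a median of 0.00. Ksr1, a scaffold of the Raf and MEK kinases, rose by 1.40 ± 0.08 in CD4 and by 0.80 ± 0.17 in CD8 cells, with edgeR adjusted p-values of 3.11e-07 and 0.0104. Rasgrp2, an exchange factor acting mainly on Rap, fell by 0.96 ± 0.12 and by 0.50 ± 0.07, with edgeR adjusted p-values of 0.000207 and 0.000779. Ptpn11 rose by 0.75 ± 0.10 in CD4 cells with an edgeR adjusted p of 0.000218. Map3k8, a kinase upstream of ERK, rose by 0.83 ± 0.14 in CD8 cells with an edgeR adjusted p of 0.00304.

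Of the JNK and p38 genes, 6 of 20 rose and 1 fell in CD4 cells, where 11.1% of all genes rose and 7.75% fell, and 5 of 19 rose and 2 fell in CD8 cells, where 10.5% did each. Map3k5, the stress kinase ASK1, rose by 0.89 ± 0.08 in CD4 and by 1.001 ± 0.08 in CD8 cells, with edgeR adjusted p-values of 1.22e-05 and 2.27e-05. Map4k1 rose by 0.37 ± 0.06 and by 0.58 ± 0.08, with edgeR adjusted p-values of 0.00142 and 0.00116. Gadd45b, an activator of the p38 pathway, rose by 0.96 ± 0.14 in CD4 cells and Gadd45g by 1.66 ± 0.17 in CD8 cells, with edgeR adjusted p-values of 0.000563 and 0.000227. The medians of this list were 0.11 and 0.05. Of 7 ERK5 and atypical MAPK genes, 1 was higher and 1 lower in L-gp130 CD4 cells, and 1 was higher and 4 lower in L-gp130 CD8 cells. Mapk6 was the higher gene and Map3k3 among the lower ones in both.

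Of 19 genes known to respond to ERK, 7 rose and 0 fell in L-gp130 CD4 cells, with a median of 0.05. Egr2 rose by 1.43 ± 0.08, with 52.7 ± 4.16 CPM in L-gp130 CD4 libraries against 19.7 ± 0.91 CPM in the controls, with an edgeR adjusted p of 1.91e-07. Junb and Fos, which form AP-1, rose by 0.98 ± 0.09 and 1.23 ± 0.20, with edgeR adjusted p-values of 1.25e-05 and 0.00132. In CD8 cells 4 of 18 rose and 1 fell, with a median of 0.27. Egr3 rose by 0.58 ± 0.09 and Ier3 by 1.18 ± 0.25, and Elk4 fell by 0.40 ± 0.07, with edgeR adjusted p-values of 0.00184, 0.00794 and 0.00377. The shares called as higher in all genes were 11.1% in CD4 and 10.5% in CD8 cells. Fos and Egr genes are themselves known to be induced by tissue dissociation. Of the 13 stress and handling genes, 4 rose and 1 fell in CD4 cells, among them Hspa8 by 0.91 ± 0.17 and Hspa1b by 1.81 ± 0.43 and, as the faller, Klf6 by 0.53 ± 0.08, with edgeR adjusted p-values of 0.00268, 0.0114 and 0.000709. In CD8 cells 1 of the 13 fell, Btg2. The part of handling in the rise of the ERK-responsive genes was not tested. Among the other list genes named, leaving out 1 library ended the calls of Dusp7 and Map3k3 in both cell types, Hspa1b in CD4 cells, and Dusp18, Ksr1, Ier3, Mapk6 and Btg2 in CD8 cells, with edgeR adjusted p-values of at most 0.221. Against control replicates 1 to 3 alone Ksr1 in CD8 cells had an edgeR adjusted p of 0.0712, and against replicates 4 to 6 alone Btg2 had 0.0585. Btg2 also missed on transcript reads summed per gene, with 0.0908, and Map3k3 in CD4 cells with the replicate block, with 0.0577.

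**Figure D5:**
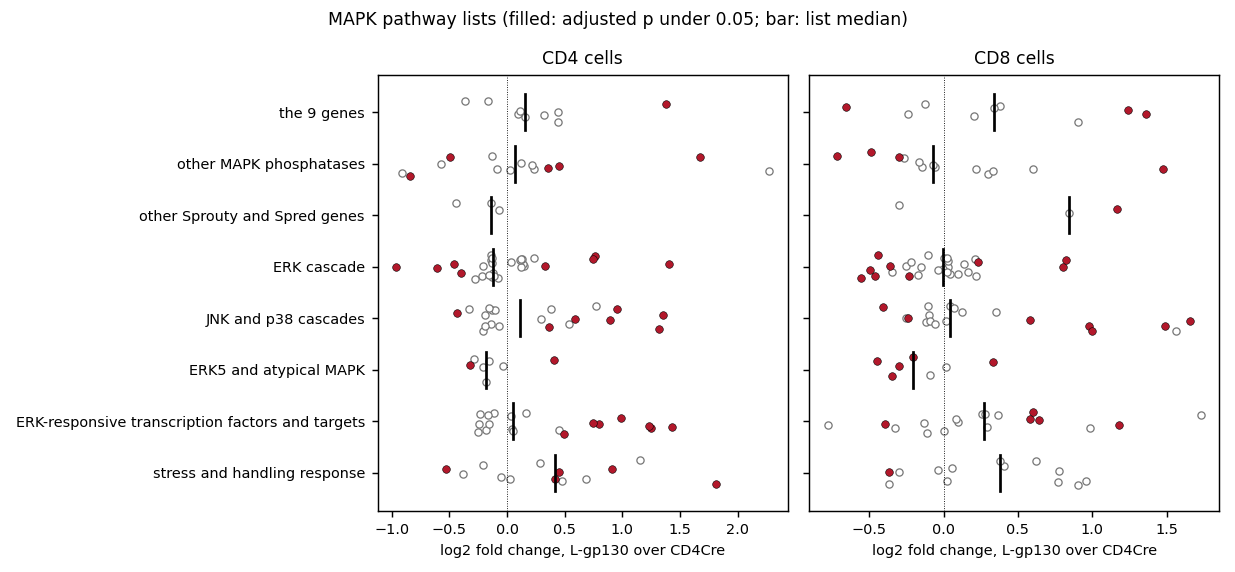
Log2 fold change, L-gp130 over CD4Cre, of the 9 genes and of each gene of the 7 lists in CD4 and CD8 cells, filled where the edgeR adjusted p was under 0.05, with a bar at each list's median. Filled points lie on both sides of 0 in the ERK cascade list, and to the right of 0 in CD4 cells for the ERK-responsive list.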

How the data were processed

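PolyA RNA of 21 libraries was sequenced unstranded as 150 bp paired ends, per the labels' protocols. Gene-level estimated counts were deposited as 1 table for CD4 and 1 for CD8 cells, and each library has a Salmon table of estimated counts and TPM by transcript, per the file headers. Salmon 1.5.2, cutadapt 3.4, Trimmomatic 0.39 and edgeR 3.34.1 are named without role in the submitters' processing notes, with build GRCm38. Their annotation release was not stated.

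GENCODE mouse release 21 gave symbols and GRCm38 positions, and named 51115 of 51201 gene IDs. Of 137641 transcripts 694 had no match, with 0.144% to 0.209% of the reads. The rounded estimated counts went into edgeR 4.0.16 under R 4.3.3, the CD4 and CD8 tables separately, with the filterByExpr filter, labelled sex as covariate, TMM scaling and the robust quasi-likelihood F test. Its 2-sided p-values were adjusted by Benjamini-Hochberg over all genes tested and called under 0.05. An SE is a log2 difference divided by the root of its F. The gene tables were scaled separately, so comparisons between cell types used reads per transcript summed per gene over all 21 libraries, in 1 fit. CPM are TMM-normalised, within a cell type for genotype comparisons and over all libraries otherwise. Transcripts with a mean share of at least 2% in any group of genotype and cell type were tested by exact permutation of samples. The most-read transcript of each gene was left out. Counts and shares rest on reads without molecular identifiers, and their precision follows the depths given.

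Also tried were DESeq2 1.42.0, voom in limma 3.58.1, RLE factors, no filter, CPM above 1, no sex term, sex read from Xist and Ddx3y, thinned counts, transcript-level sums, a threshold of 0.01, a replicate block, and leaving out libraries. The genes, lists and tests were chosen with earlier results of these data known. Named are all 9 genes, up to 3 called genes per list and cell type by smallest adjusted p, and the 3 genes most correlated with a gene of the 9 called in CD4 cells; genes named to complete a count of few were chosen after their values were seen. Libraries of a group differed by at least 9.75 in chi-square per gene, so none looked like a copy. The fitting steps were tested on simulated counts.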

Additional observations from a re-analysis of the deposited data

Results flagged for a closer look

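Spry2 had 4.52 CPM in L-gp130 CD4 replicate 1, against 1.21 to 2.35 CPM in the other 5 L-gp130 CD4 libraries, a gap that set this library apart from its group. It was the 1 far value among 30 groups of values examined, and chance sets apart about 1 group in 20. The same library had 92.3 CPM of Cd8a and 32.7 CPM of Xcr1, far above its group, and 33.5 CPM of Cd8b1 against 17.5 to 25.4. Its Siglech, another dendritic cell marker, was the lowest of its group at 2.37 CPM. The part of other cells in its Spry2 value was not tested.

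The genotype difference was larger in CD4 than in CD8 cells for Egr2, by 0.92 on the log2 scale with an edgeR adjusted p of 0.00142. The same held for Ptpn11, by 0.79 with an edgeR adjusted p of 0.000555, for Ksr1, by 0.42 with an edgeR adjusted p of 0.0333, for Ppm1d, by 0.55 with 0.0288, and for Fosl2, by 0.60 with 0.0404. For Rasa3, a Ras GTPase-activating protein, the difference of effects was -0.42 with an edgeR adjusted p of 0.0239. These 6 were all the calls among the pathway lists. They were 1 of 15 other MAPK phosphatases, 2 higher and 1 lower of 28 ERK cascade genes, and 2 of 19 ERK-responsive genes. The other lists had 0 calls. Of all 15758 genes 3.46% were called, and nothing about the lists is read from these counts. The 6 calls are given with all 21 libraries only. Over all genes the calls numbered 545, against 984 without L-gp130 CD4 replicate 1. None of the 9 feedback genes had effects that differed between cell types past the threshold by edgeR, where 1 of the 9 had an unadjusted p under 0.05.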

How the results depend on the processing

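Spry1 in CD4 cells was called under every alternative. Of the 9 genes called in CD4 cells, DESeq2 gave 2, no sex term 3, sex read from Xist and Ddx3y 3, the fit without both libraries in doubt 3, and fits without 1 library 1 to 3. In CD8 cells 0 passed a threshold of 0.01 and 1 passed without a filter, 0 to 4 were called without 1 library, and 5 without control replicates 1 to 3, an alternative chosen after seeing the data, as were all those below that leave out several CD8 libraries. Counts over all genes at a threshold of 0.01 were 1272 in CD4 and 1249 in CD8 cells, and without 1 library 1411 to 3642 and 1374 to 2967. For the difference between cell types, 955 genes were called by DESeq2, 888 without both libraries in doubt (chosen after seeing the data), 838 without control CD8 replicates 1 to 3, where 1 of the 9, Dusp5, was called, 314 without replicates 4 to 6, and 236 to 984 without 1 library. The Dusp2-202 share differed by 1.38 to 1.82 points without 1 library. The smallest p that exact permutation allows there has an adjusted p of 0.0693, so that the call was lost each time. The share differed by 1.53 points without both libraries in doubt, with an exact permutation adjusted p of 0.127.

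Directions turned, in each case for values that had not passed the test except Dusp5 between control cell types. Without control CD8 replicates 4 to 6 the CD8 log2 differences were -0.068 (Dusp1), -0.34 (Dusp5) and 0.053 (Spred1), and without replicates 1 to 3 that of Dusp6 was 0.053. CD4 minus CD8 genotype effects turned without replicates 1 to 3 for Dusp1 (-0.57) and Spry1 (-0.63), without replicates 4 to 6 for Dusp5 (0.059), with limma-voom for Dusp1 (-0.008) and Spry1 (-0.037), and without both libraries in doubt for Dusp1 (-0.028). Between control CD4 and CD8 cells, Dusp5 (0.027) and Dusp6 (0.10) turned without replicates 1 to 3. Without 1 library the ranges were -0.083 to 0.61 for Spry2 in CD4 cells, and -0.097 to 0.27 (Dusp1) and -0.081 to 0.23 (Spry1) for the difference of effects. The cause was not tested.

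Replicate numbers are shared between groups, but no label pairs the mice, and L-gp130 replicate 2 is labelled with a different sex in CD4 and CD8 cells. Deviations of same-numbered libraries correlated at -0.205 to 0.178. Each of the 3 L-gp130 CD8 libraries correlated best with its own number among control replicates 1 to 3, but at only 0.049, -0.056 and 0.178. Of the 6 L-gp130 CD4 libraries, 1 correlated best with its own number. This is no more than a hint from the data alone. With the replicate block 268 genes were called for the difference of effects, the CD8 differences of Dusp1, Dusp5 and Spred1 were -0.074, -0.345 and 0.049, that of Dusp10 in CD4 cells was -0.023, and 4 of the 9 were called in CD8 cells. In CD8 cells the block leaves control replicates 4 to 6 without partners.

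Depth limits Spry2 in CD4 cells, which rests on 24 to 82 estimated counts per library. With 3 L-gp130 CD8 libraries, each of the 3 CD8 calls among the 9 was lost without at least 1 single library.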
